A study of Mus musculus with 12 samples.

Results

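The genes described here are 32 genes of fatty acid oxidation and of the response to the nuclear receptor PPAR alpha, taken by name from the annotation of the array. Of these, 31 had at least 1 probe set that carried their symbol alone, with 60 probe sets in all, out of 18193 genes measured in the same way. Acsl1 was not analysed here. They comprise 6 measured genes of uptake and the carnitine shuttle, 12 of mitochondrial beta-oxidation, 6 of peroxisomal beta-oxidation and peroxisome proliferation, 3 acyl-CoA thioesterases, 2 transcriptional regulators and 2 other targets of PPAR alpha. Genes of ketone body metabolism are not among the 32 and were described from a separate list. RNA came from whole kidneys of male F1 mice (C57BL6 X 129/SvEv) aged 2.5 months, with 3 mice and 3 arrays in each of 4 groups. Wild-type (WT) and AGTR1A-KO mice (KO), which lack the AT1A receptor of angiotensin II, were studied at baseline or after 2 days of ANG II infusion at 1 ug/kg/min. Both genotypes shared the strain, sex, age and the diet given in the labels as NS diet, and the labels name no cell type, promoter or line for the deletion.

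Fatty acids are activated to acyl-CoA, carried into mitochondria as carnitine esters and shortened there by repeated rounds of dehydrogenation, hydration, oxidation and thiolysis, while peroxisomes shorten very long and branched chains. PPAR alpha binds DNA with RXR at direct repeats of a hexamer and, when fatty acids or fibrates occupy it, raises transcription of many genes of these pathways. The proximal tubule of the kidney relies on fatty acid oxidation for much of its energy and is the main renal site of PPAR alpha.

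Each deposited value was a linear ratio of an array to the median of that probe set over the 12 arrays, so differences between arrays can be read. By contrast, levels of different genes cannot be compared and unexpressed genes cannot be told from expressed ones. A gene was given the mean of the log2 ratios of its probe sets, and printed ratios are this mean turned back to the linear scale. A gene was called changed at a Benjamini-Hochberg adjusted p under 0.05 over all 18193 genes in the limma fit. Errors are its standard errors, and p-values measure the spread between 3 mice per group, whose number limits the precision. The targeted gene Agtr1a had ratios of 1.37, 1.40 and 1.36 in WT baseline and 0.957, 1.00 and 0.997 in WT ANG II kidneys. Agtr1a in KO stood at 1.04, 0.923 and 0.965 at baseline and 0.983, 0.917 and 1.05 with ANG II. Its WT baseline values stood above all others, and no source used here says whether its probe set covers the deletion. The WT ANG II arrays had the widest spread of log2 ratios over all genes, with a standard deviation of 0.268 to 0.342 against 0.164 to 0.262 on the other 9 arrays. They also had the highest 3' minus 5' log2 difference of the Actb and Gapdh controls, 0.036 to 0.067 against -0.040 to 0.011.

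With ANG II in WT kidneys, 8 of 31 genes were called (25.8%), 6 higher and 2 lower, where 26.5% of all genes were called. The 6 that rose were the thioesterase genes Acot3 and Acot1, Angptl4, Ppara itself, Hadha and Acadvl, and the 2 that fell were Acaa2 and Acads. In KO kidneys 5 of 31 were called (16.1% against 12.8% of all genes), with Slc22a5, Crot, Acaa2 and Etfb higher and Angptl4 lower. Among all genes 5.82% rose and 7% fell in KO. The response itself differed between genotypes for 7 genes (22.6% against 13% of all genes): it was lower in KO for Angptl4, Acot3, Acot1 and Ppara and higher in KO for Acaa2, Crot and Slc22a5. At baseline 2 genes, Angptl4 and Pex11a, were higher in KO (6.45% against 8.07% of all genes). Among all genes 5.13% were higher and 2.94% lower in KO at baseline. Under ANG II 16 of 31 differed between KO and WT (51.6% against 25.6% of all genes), 8 higher and 8 lower in KO, where 15.2% of all genes were higher and 10.4% lower. The median log2 change of the 31 genes was 0.02 in WT, -0.0034 in KO, -0.10 for the difference of responses, 0.04 for KO minus WT at baseline and -0.04 under ANG II. The medians of all genes in the same order were 0.03, 0.05, 0.01, -0.04 and -0.02. Changes ran in both directions within the group. Counts rested on single arrays in places, and the WT count was 4 without WT baseline replicate 1. The KO count was 3, 2 and 0 without KO ANG II replicates 1, 2 and 3 and 1, 0 and 1 without KO baseline replicates 1, 2 and 3, with 7 and 8 genes at an unadjusted p under 0.05 in limma where it was 0. The count for the difference of responses was 4 without KO ANG II replicates 2 or 3, WT ANG II replicate 3 or KO baseline replicate 2. That at baseline was 1 on leaving out any of the WT baseline, KO baseline or KO ANG II arrays, and the count under ANG II was 10 without KO ANG II replicate 1.

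**Figure D1:**
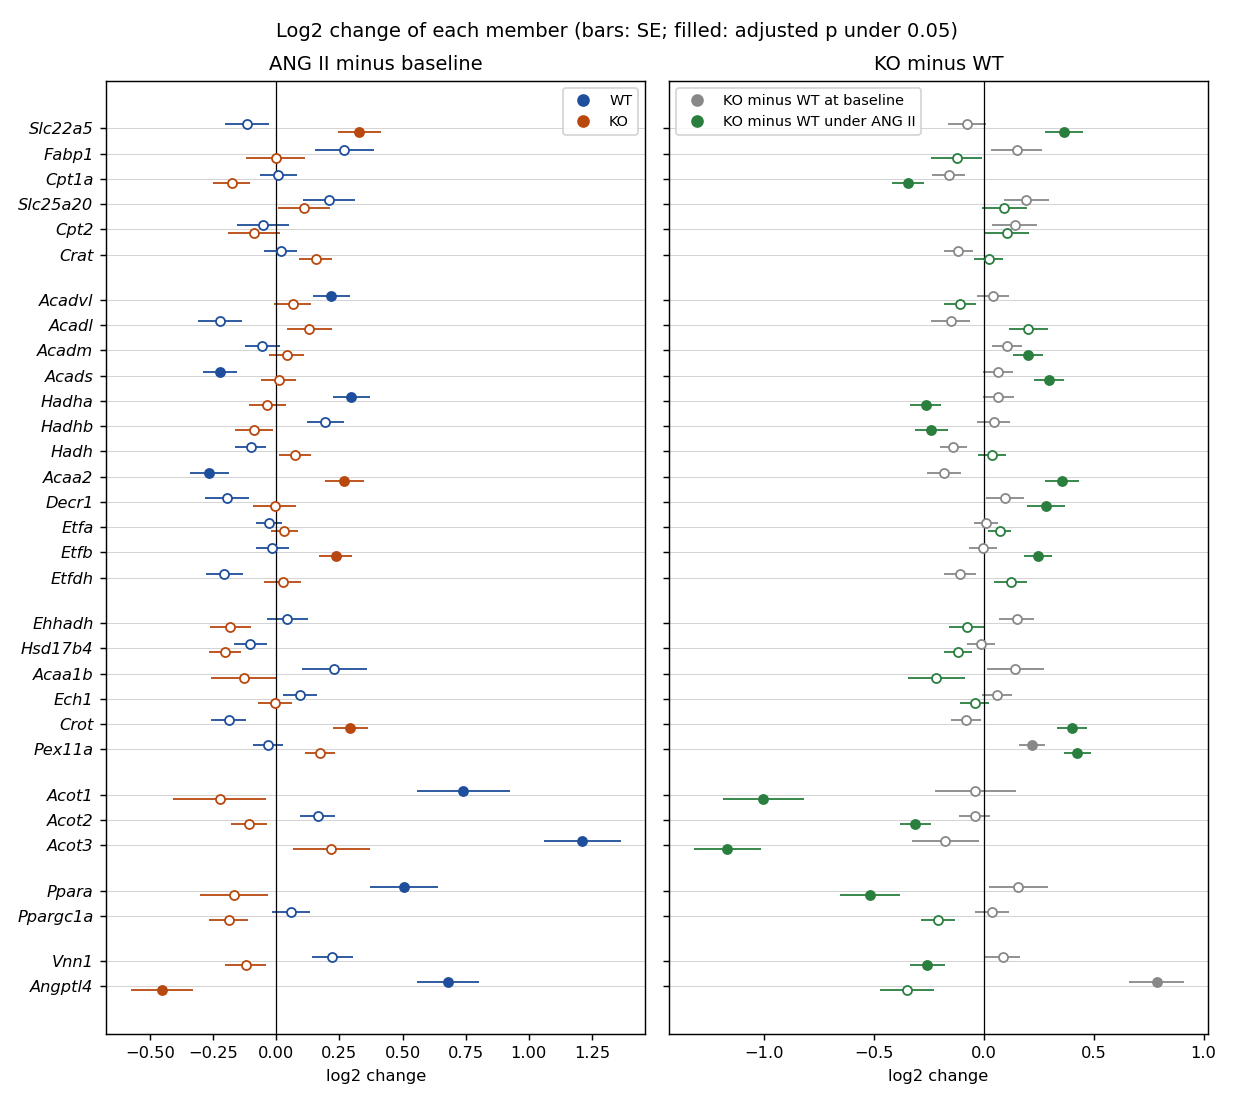
Log2 change of each of the 31 genes (rows, grouped by role) with its standard error as a bar, on the left ANG II minus baseline in WT (blue) and KO (orange), on the right KO minus WT at baseline (grey) and under ANG II (green); filled points passed the adjusted threshold of 0.05. Acot3 (1.21), Acot1 (0.74), Angptl4 (0.68) and Ppara (0.51) lie farthest to the right in WT, and in KO these 4 lie at 0.22, -0.22, -0.45 and -0.17.

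Ppara encodes the receptor itself, and its 3 probe sets all had positive changes in WT. Ppara had ratios of 0.912, 0.845 and 1.05 in WT baseline and 1.41, 1.05 and 1.56 in WT ANG II kidneys. Ppara in KO stood at 0.928, 1.10 and 1.10 at baseline and 0.843, 0.946 and 0.993 with ANG II. WT ANG II replicates 1 and 3 stood above every other array, whereas replicate 2 lay at the top of the WT baseline range, so the groups overlapped at that point. The log2 change was 0.51 ± 0.14, adjusted p = 0.0169 in WT and -0.17 ± 0.14, adjusted p = 0.416 in KO. These responses differed by -0.67 ± 0.19, adjusted p = 0.0362. Under ANG II Ppara was 1.43-fold lower in KO than in WT (log2 -0.52 ± 0.14, adjusted p = 0.0158). The WT call was lost without WT baseline replicates 1 or 2 or WT ANG II replicate 3 (adjusted p = 0.0592 to 0.0717). The call on the Ppara difference of responses was lost without WT baseline replicates 1 or 2, WT ANG II replicates 1 or 3, KO baseline replicates 2 or 3 or KO ANG II replicates 1, 2 or 3 (adjusted p = 0.052 to 0.0811) and with array weights (adjusted p = 0.0626). Its call under ANG II was lost without WT ANG II replicate 3 or KO ANG II replicate 1 (adjusted p = 0.0647 to 0.0671) and with array weights (adjusted p = 0.0571). Ppargc1a, which encodes the coactivator PGC-1 alpha, was not called in any comparison, with gene-level changes of 0.06 ± 0.08 in WT and -0.19 ± 0.08 in KO. Its 5 probe sets disagreed in WT: probe set 1456395_at was called higher at 0.55, and the others lay between -0.23 and 0.02. In KO another of them, 1460336_at, was called lower at -0.75, and 1456395_at was at 0.16.

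Slc22a5 encodes the plasma membrane carnitine transporter OCTN2, which recovers carnitine from the tubule lumen. Slc22a5 ratios were 1.02, 0.915 and 1.16 in WT baseline and 1.02, 0.880 and 0.950 in WT ANG II kidneys. Slc22a5 in KO stood at 0.976, 0.981 and 0.960 at baseline and 1.15, 1.24 and 1.28 with ANG II. All 3 KO ANG II kidneys stood above the KO baseline and the WT ANG II kidneys, and only 1 of them, replicate 1, lay within the WT baseline range. Slc22a5 rose with ANG II in KO by a log2 of 0.33 ± 0.09, adjusted p = 0.0283. In WT the Slc22a5 change was -0.12 ± 0.09, adjusted p = 0.332, and the responses differed by 0.44 ± 0.12, adjusted p = 0.0312. Under ANG II it was 1.29-fold higher in KO than in WT (log2 0.37 ± 0.09, adjusted p = 0.00949), a call that no alternative removed. The KO call was lost without KO baseline replicates 1, 2 or 3 or KO ANG II replicates 2 or 3 (adjusted p = 0.0712 to 0.0993). The call on its difference of responses was lost without WT baseline replicates 1 or 3, WT ANG II replicates 2 or 3, KO baseline replicates 1, 2 or 3 or KO ANG II replicates 2 or 3 (adjusted p = 0.0531 to 0.0806).

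Cpt1a encodes the carnitine palmitoyltransferase of the outer mitochondrial membrane, the main control point of entry into beta-oxidation. Ratios of Cpt1a were 1.00, 1.17 and 1.13 in WT baseline and 1.15, 1.04 and 1.12 in WT ANG II kidneys. Cpt1a in KO stood at 0.964, 1.00 and 0.984 at baseline and 0.821, 0.919 and 0.872 with ANG II. The KO ANG II kidneys were the lowest 3 of the 12, and WT values with and without ANG II overlapped. Cpt1a was lower in KO than in WT under ANG II (log2 -0.35 ± 0.07, adjusted p = 0.00538), with log2 changes of 0.01 ± 0.07 in WT and -0.18 ± 0.07 in KO that were not called. Its probe sets did not share a direction in WT: 1438156_x_at was called lower at -0.38, and the other 2 were at 0.05 and 0.34, uncalled when tested one by one. With 1 probe set per gene the change of Cpt1a in WT was 0.34 (adjusted p = 0.0489). On the same probe set the KO minus WT difference under ANG II was -0.20 (adjusted p = 0.231). The remaining genes of the shuttle were Slc25a20, the carnitine-acylcarnitine translocase, Cpt2, the inner-membrane transferase, Crat, the carnitine acetyltransferase, and Fabp1, the liver-type fatty acid binding protein. None of these 4 passed in any comparison at the gene level, and their WT changes were 0.21 ± 0.10, -0.05 ± 0.10, 0.02 ± 0.06 and 0.27 ± 0.12. Crat hid opposed probe sets, with 1417008_at called lower in WT at -0.34 and the other 2 at 0.15 and 0.25. The 2 probe sets of Cpt2 also lay on both sides of 0 in WT, neither of them called.

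The promoters of the group were searched for the PPAR response element of the direct repeat type, AGGTCANAGGTCA, on both strands with at most 2 mismatches among its 12 fixed letters. Windows of 250 bases before to 50 after the gene start came from the RefSeq promoter table (build GRCm38.p6), which held 26 of the 32 genes. A match was found for 3 of the 26 genes, Fabp1, Etfa and Slc25a20, and in 3.86% of all 32851 windows of the same length. The closest match among them was in Fabp1, 67 bases before its start and with 1 mismatch, and its promoter at chr6:71199629-71199878 (plus strand) is shown, over the 250 bases before the start, with that match, which reads on the minus strand, in capitals.
Fabp1: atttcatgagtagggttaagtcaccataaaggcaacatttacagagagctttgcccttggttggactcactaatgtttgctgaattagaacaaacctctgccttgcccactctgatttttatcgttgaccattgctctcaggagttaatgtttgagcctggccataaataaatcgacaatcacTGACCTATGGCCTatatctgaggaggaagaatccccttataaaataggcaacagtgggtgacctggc
Fabp1 had ratios of 0.900, 0.775 and 1.01 in WT baseline and 1.06, 1.02 and 1.14 in WT ANG II kidneys. Fabp1 in KO stood at 1.15, 0.939 and 0.884 at baseline and 1.00, 1.08 and 0.874 with ANG II. Its groups overlapped except WT baseline and WT ANG II, and no comparison called it (WT response 0.27 ± 0.12, adjusted p = 0.104). A match describes letters only and not binding, and the absence of a match covers only this window.

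Among the 12 mitochondrial genes, 2 rose and 2 fell with ANG II in WT, with a median of -0.08. Of all genes, 10.9% rose and 15.6% fell in WT. Hadha and Hadhb encode the alpha and beta subunits of the trifunctional protein, which carries out the last 3 steps of long-chain oxidation. The genes lie head to head on chromosome 5, and the 272 bases between their starts at chr5:30154981-30155252 (GRCm38.p6, plus strand, RefSeq windows joined) are shown because both genes are read from this interval, Hadha to the left and Hadhb to the right.
Hadha to Hadhb: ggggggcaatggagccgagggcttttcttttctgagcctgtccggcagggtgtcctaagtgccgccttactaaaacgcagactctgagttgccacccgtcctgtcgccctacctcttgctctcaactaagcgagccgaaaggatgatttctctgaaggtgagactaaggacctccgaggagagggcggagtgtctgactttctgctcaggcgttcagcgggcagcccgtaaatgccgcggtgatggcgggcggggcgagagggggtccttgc
Hadha had ratios of 0.978, 0.949 and 0.976 in WT baseline and 1.17, 1.08 and 1.33 in WT ANG II kidneys. Hadha in KO stood at 0.990, 1.02 and 1.03 at baseline and 0.966, 0.995 and 1.00 with ANG II. Its 3 WT ANG II kidneys stood above all 9 others, and the other 9 ran from 0.949 to 1.03, with KO baseline above WT baseline and KO ANG II overlapping KO baseline. Hadha rose in WT by 0.30 ± 0.07, adjusted p = 0.011. In KO Hadha changed by -0.04 ± 0.07, adjusted p = 0.763, and the responses differed by -0.33 ± 0.10, adjusted p = 0.0506, short of the threshold. The WT call held in every alternative run, with an adjusted p of up to 0.0496. Hadha had 1 probe set, so alternatives that choose among probe sets could not change its values. Hadhb gave ratios of 1.01, 0.996 and 0.912 in WT baseline and 1.19, 1.06 and 1.09 in WT ANG II kidneys. Hadhb in KO stood at 0.983, 1.05 and 0.973 at baseline and 1.01, 0.939 and 0.877 with ANG II. WT ANG II was again the highest group, but replicate 2 lay only just above KO baseline replicate 2. The log2 change of Hadhb in WT, 0.19 ± 0.07, adjusted p = 0.0705, did not pass, and its probe sets split into 0.38 (called), 0.34 and -0.14. Under ANG II both subunits were lower in KO, with a log2 difference of -0.27 ± 0.07, adjusted p = 0.019 for Hadha and -0.24 ± 0.07, adjusted p = 0.0332 for Hadhb. The call on Hadha was lost without WT ANG II replicate 3 or KO ANG II replicate 1 (adjusted p = 0.0655 to 0.0665) and with quantile normalization or a fit to the groups compared alone (adjusted p = 0.0705 to 0.079). That on Hadhb was lost without WT ANG II replicates 1 or 3 or KO ANG II replicates 2 or 3 (adjusted p = 0.0602 to 0.129) and with quantile normalization or a fit to the groups compared alone (adjusted p = 0.0896 to 0.103).

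Acaa2 encodes the mitochondrial 3-ketoacyl-CoA thiolase, the last step for medium chains. Acaa2 ratios were 1.06, 0.987 and 1.05 in WT baseline and 0.850, 0.841 and 0.881 in WT ANG II kidneys. Acaa2 in KO stood at 1.01, 0.908 and 0.823 at baseline and 1.05, 1.08 and 1.16 with ANG II. WT ANG II kidneys lay below all WT baseline kidneys and KO ANG II kidneys above all KO baseline kidneys, while KO baseline ran from below WT ANG II into the WT baseline range. Acaa2 fell in WT by a log2 change of -0.27 ± 0.08, adjusted p = 0.0234 and rose in KO by 0.27 ± 0.08, adjusted p = 0.0376. The Acaa2 responses differed by 0.53 ± 0.11, adjusted p = 0.00687. The call on this difference held in every alternative run, as did that of KO minus WT under ANG II (0.35 ± 0.08, adjusted p = 0.00572). The WT call was lost without WT baseline replicates 1 or 3 or WT ANG II replicate 2 (adjusted p = 0.0592 to 0.0838) and with 1 probe set per gene, the median of probe sets or quantile normalization (adjusted p = 0.0535 to 0.102). The KO call was lost without KO baseline replicates 2 or 3 or KO ANG II replicates 2 or 3 (adjusted p = 0.0753 to 0.135) and with 1 probe set per gene, the median of probe sets, quantile normalization, the filter on low spread, probe sets tested one by one or a fit to the groups compared alone (adjusted p = 0.0527 to 0.0791).

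The acyl-CoA dehydrogenases, which start each round for a given chain length, went different ways. Acadvl, for very long chains, had ratios of 0.973, 0.889 and 1.00 in WT baseline and 1.15, 1.00 and 1.18 in WT ANG II kidneys. Acadvl in KO stood at 0.980, 0.965 and 0.998 at baseline and 1.04, 0.993 and 1.05 with ANG II. All 3 WT ANG II values were above the 3 WT baseline values, replicate 2 only by a small margin, and 2 of the 3 KO ANG II kidneys lay above WT ANG II replicate 2. Acadvl rose in WT by 0.22 ± 0.07, adjusted p = 0.0451. That call was lost without WT baseline replicates 1 or 2, WT ANG II replicates 1 or 3, KO baseline replicates 1, 2 or 3 or KO ANG II replicates 1, 2 or 3 (adjusted p = 0.0526 to 0.154) and with 1 probe set per gene, quantile normalization, centring of arrays, array weights, probe sets tested one by one or a fit to the groups compared alone (adjusted p = 0.0569 to 0.119). The KO change of Acadvl was 0.07 ± 0.07, and the responses differed by -0.15 ± 0.10, adjusted p = 0.390, which was not called. Acads, for short chains, had ratios of 1.01, 0.885 and 1.02 in WT baseline and 0.815, 0.828 and 0.853 in WT ANG II kidneys. Acads in KO stood at 0.985, 1.05 and 1.01 at baseline and 0.980, 1.04 and 1.05 with ANG II. The WT ANG II kidneys were the lowest 3 of the 12 in Acads. Acads fell in WT by a log2 change of -0.22 ± 0.07, adjusted p = 0.0308. That call was lost without WT baseline replicates 1 or 3 or WT ANG II replicates 1 or 2 (adjusted p = 0.0596 to 0.117) and with 1 probe set per gene, quantile normalization, array weights, probe sets tested one by one or a fit to the groups compared alone (adjusted p = 0.0505 to 0.256). Under ANG II Acads was higher in KO by 0.30 ± 0.07, adjusted p = 0.00836. That call was lost with quantile normalization (adjusted p = 0.0701). The KO change of Acads was 0.01 ± 0.07, and the responses differed by 0.23 ± 0.10, adjusted p = 0.143, which was not called. Acadm, for medium chains, had ratios of 0.982, 0.985 and 0.935 in WT baseline and 0.957, 0.983 and 0.856 in WT ANG II kidneys. Acadm in KO stood at 1.01, 1.02 and 1.08 at baseline and 1.12, 1.06 and 1.03 with ANG II. Its KO ANG II kidneys were above all WT ANG II kidneys, and within each genotype baseline and ANG II overlapped. Acadm was called only under ANG II, higher in KO by 0.20 ± 0.07, adjusted p = 0.0466. That call was lost without WT baseline replicates 1, 2 or 3, WT ANG II replicate 3, KO baseline replicates 1, 2 or 3 or KO ANG II replicates 1, 2 or 3 (adjusted p = 0.055 to 0.165) and with 1 probe set per gene, quantile normalization, array weights, _x_at and _s_at probe sets left out, probe sets tested one by one or a fit to the groups compared alone (adjusted p = 0.0508 to 0.126). Acadl, for long chains, was not called, with changes of -0.22 ± 0.09, adjusted p = 0.0776 in WT and 0.13 ± 0.09, adjusted p = 0.334 in KO.

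Etfb, the beta subunit of the flavoprotein that takes electrons from these dehydrogenases, had ratios of 1.01, 0.934 and 1.02 in WT baseline and 0.947, 0.946 and 1.04 in WT ANG II kidneys. Etfb in KO stood at 0.986, 0.992 and 0.980 at baseline and 1.18, 1.12 and 1.19 with ANG II. The 3 KO ANG II kidneys were the highest of the 12. Etfb rose in KO by 0.23 ± 0.06, adjusted p = 0.0327 and was higher in KO than in WT under ANG II by 0.25 ± 0.06, adjusted p = 0.0151. The KO call was lost without KO baseline replicates 1, 2 or 3 or KO ANG II replicates 1 or 3 (adjusted p = 0.073 to 0.109) and with 1 probe set per gene or probe sets tested one by one (adjusted p = 0.0583 to 0.0667). Under ANG II the call on Etfb was lost without KO ANG II replicates 1 or 3 (adjusted p = 0.0541 to 0.0558) and with a fit to the groups compared alone (adjusted p = 0.0628). The WT change of Etfb was -0.02 ± 0.06, and the responses differed by 0.25 ± 0.09, adjusted p = 0.0921, which was not called. Decr1, the 2,4-dienoyl-CoA reductase used for unsaturated chains, had ratios of 0.989, 0.901 and 1.03 in WT baseline and 0.759, 0.844 and 0.957 in WT ANG II kidneys. Decr1 in KO stood at 1.02, 1.00 and 1.09 at baseline and 1.04, 0.992 and 1.07 with ANG II. Its KO ANG II and WT ANG II kidneys did not overlap, with 2 WT ANG II kidneys the lowest of all. Decr1 was higher in KO under ANG II by 0.28 ± 0.09, adjusted p = 0.03. That call was lost without WT ANG II replicates 1 or 2 or KO ANG II replicates 1 or 3 (adjusted p = 0.0695 to 0.0942) and with 1 probe set per gene, quantile normalization or a fit to the groups compared alone (adjusted p = 0.079 to 0.151). Etfa, the partner subunit of Etfb, Etfdh, which passes the electrons to ubiquinone, and Hadh, the short-chain hydroxyacyl-CoA dehydrogenase, were not called, with WT changes of -0.03 ± 0.05, -0.21 ± 0.07 and -0.10 ± 0.06. The 3 probe sets of Hadh lay on both sides of 0 in WT, none of them called.

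Among the 6 peroxisomal genes none was called by limma in WT (1 had an unadjusted p under 0.05), with a median log2 change of 0.01 and a range of -0.19 to 0.23. Of all genes, 26.5% were called in WT. Crot encodes the carnitine octanoyltransferase that readies shortened chains for transfer to mitochondria. Crot had ratios of 0.992, 0.988 and 0.956 in WT baseline and 0.829, 0.888 and 0.859 in WT ANG II kidneys. Crot in KO stood at 0.926, 0.888 and 0.964 at baseline and 1.20, 1.04 and 1.17 with ANG II. KO ANG II kidneys stood above all 9 others and WT ANG II kidneys at or near the bottom, with replicate 2 of both WT ANG II and KO baseline at 0.888. Crot rose in KO by 0.29 ± 0.07, adjusted p = 0.0178, and its change in WT was -0.19 ± 0.07, adjusted p = 0.0598. The Crot responses differed by 0.48 ± 0.10, adjusted p = 0.00702, and under ANG II it was 1.32-fold higher in KO (0.40 ± 0.07, adjusted p = 0.00145). Its 2 probe sets had WT changes of -0.49 (called) and 0.11. With the second of them alone the difference of responses was 0.37 (adjusted p = 0.142) and KO minus WT under ANG II was 0.10 (adjusted p = 0.513). The KO call was lost without KO baseline replicates 1 or 2 or KO ANG II replicates 1 or 3 (adjusted p = 0.0524 to 0.0738).

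Pex11a encodes a membrane protein that promotes elongation and division of peroxisomes. Ratios of Pex11a were 0.942, 0.910 and 0.947 in WT baseline and 0.901, 0.870 and 0.966 in WT ANG II kidneys. Pex11a in KO stood at 1.08, 1.12 and 1.05 at baseline and 1.24, 1.19 and 1.24 with ANG II. All 6 KO kidneys were above all 6 WT kidneys, and the 3 KO ANG II kidneys were the highest. Pex11a was higher in KO by 0.22 ± 0.06, adjusted p = 0.0445 at baseline and by 0.43 ± 0.06, adjusted p = 0.000419 under ANG II. The call under ANG II held in every alternative run, while that at baseline was lost without WT baseline replicates 1, 2 or 3, KO baseline replicates 1, 2 or 3 or KO ANG II replicates 1, 2 or 3 (adjusted p = 0.055 to 0.164) and with a variance trend, 1 probe set per gene, the median of probe sets, the filter on low spread, _x_at and _s_at probe sets left out, probe sets tested one by one or a fit to the groups compared alone (adjusted p = 0.0501 to 0.167). Ehhadh and Hsd17b4, the L- and D-specific bifunctional enzymes, Acaa1b, a peroxisomal thiolase, and Ech1, a dienoyl-CoA isomerase, were not called in any comparison. Their WT changes were 0.04 ± 0.08, -0.10 ± 0.06, 0.23 ± 0.13 and 0.09 ± 0.07. The KO change of Hsd17b4 was -0.20 ± 0.06, adjusted p = 0.0537, and in 7 alternatives it was called lower (adjusted p = 0.0200 to 0.0490). In WT its 2 probe sets lay on both sides of 0, and the lower, at -0.25, was called with probe sets tested one by one. Probe sets that name Acaa1b together with its near copy Acaa1a were left out, and the remaining probe set may still share signal with that copy.

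The acyl-CoA thioesterases split acyl-CoA into free fatty acid and CoA, Acot1 in the cytosol, Acot2 in mitochondria and Acot3 in peroxisomes of the mouse. Acot2, Acot1, Acot4 and Acot3 follow each other in this order on chromosome 12 and are close copies, so their probe sets may share signal. Acot3 was measured by 1 probe set of the _s_at kind, and 1 that names Acot1 and Acot2 together was left out. The bases before the starts of Acot1 (chr12:84009252-84009501) and Acot3 (chr12:84051894-84052143), both on the plus strand of GRCm38.p6, are shown because these genes had the largest WT changes of the 31, and neither window held a match to the element.
Acot1: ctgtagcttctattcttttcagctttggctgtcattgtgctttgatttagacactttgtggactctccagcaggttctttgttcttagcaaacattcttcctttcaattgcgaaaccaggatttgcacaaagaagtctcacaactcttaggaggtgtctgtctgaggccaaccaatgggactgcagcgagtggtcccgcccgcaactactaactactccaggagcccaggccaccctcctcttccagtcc
Acot3: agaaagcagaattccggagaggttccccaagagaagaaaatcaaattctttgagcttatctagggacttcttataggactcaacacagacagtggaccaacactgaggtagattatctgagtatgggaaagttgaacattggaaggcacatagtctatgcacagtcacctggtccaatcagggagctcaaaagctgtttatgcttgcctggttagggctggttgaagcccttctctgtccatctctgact
Acot3 had ratios of 1.01, 0.877 and 1.05 in WT baseline and 2.19, 1.81 and 2.90 in WT ANG II kidneys. Acot3 in KO stood at 0.932, 0.788 and 0.875 at baseline and 0.992, 0.871 and 1.17 with ANG II. The WT ANG II kidneys stood far above all 9 others, which overlapped one another. Acot3 rose 2.32-fold in WT (log2 1.21 ± 0.15, adjusted p = 0.000223). In KO Acot3 changed by 0.22 ± 0.15, adjusted p = 0.347, and the responses differed by -0.99 ± 0.22, adjusted p = 0.00991. Under ANG II it was 2.25-fold lower in KO (log2 -1.17 ± 0.15, adjusted p = 0.000214), and these calls held in every alternative run. Leaving out _x_at and _s_at probe sets removed Acot3 itself, so that alternative could not be run on it. With 1 probe set, the choice of 1 probe set per gene or of their median could not change its values. Acot1 had ratios of 1.01, 0.992 and 0.825 in WT baseline and 1.90, 1.21 and 1.68 in WT ANG II kidneys. Acot1 in KO stood at 0.824, 1.01 and 0.911 at baseline and 1.02, 0.613 and 0.765 with ANG II. Again all WT ANG II kidneys were above the rest, replicate 2 the least, and KO ANG II replicate 2 was the lowest of the 12. Acot1 rose 1.67-fold in WT (log2 0.74 ± 0.18, adjusted p = 0.0117). The KO change of Acot1 was -0.22 ± 0.18, adjusted p = 0.424, and the responses differed by -0.96 ± 0.26, adjusted p = 0.028. It was 2.01-fold lower in KO than in WT under ANG II (log2 -1.0 ± 0.18, adjusted p = 0.0021). The call on the difference was lost without WT baseline replicate 3, WT ANG II replicates 1 or 3, KO baseline replicates 2 or 3 or KO ANG II replicates 2 or 3 (adjusted p = 0.0509 to 0.0682) and with quantile normalization (adjusted p = 0.0713). In WT the Acot1 call was lost with quantile normalization (adjusted p = 0.0612). Acot2 had ratios of 1.02, 0.999 and 1.00 in WT baseline and 1.12, 1.06 and 1.20 in WT ANG II kidneys. Acot2 in KO stood at 0.981, 0.933 and 1.02 at baseline and 0.921, 0.842 and 0.965 with ANG II. WT ANG II was the highest group and KO ANG II the lowest apart from an overlap with KO baseline. Acot2 was lower in KO than in WT under ANG II (log2 -0.31 ± 0.07, adjusted p = 0.0076), while its WT change of 0.16 ± 0.07, adjusted p = 0.105 did not pass.

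Angptl4 encodes a secreted inhibitor of lipoprotein lipase. Angptl4 had ratios of 0.628, 0.604 and 0.884 in WT baseline and 1.15, 1.09 and 1.10 in WT ANG II kidneys. Angptl4 in KO stood at 1.14, 1.28 and 1.18 at baseline and 0.911, 0.784 and 0.936 with ANG II. WT baseline kidneys 1 and 2 were the lowest of the 12, WT ANG II lay above WT baseline, and KO ran the other way, with all 3 KO ANG II kidneys below all 3 KO baseline kidneys. Angptl4 rose in WT by 0.68 ± 0.12, adjusted p = 0.00218 and fell in KO by a log2 change of -0.45 ± 0.12, adjusted p = 0.0315. The Angptl4 responses differed by -1.14 ± 0.17, adjusted p = 0.00126. At baseline it was 1.72-fold higher in KO (log2 0.79 ± 0.12, adjusted p = 0.00271), and under ANG II the difference was -0.35 ± 0.12, adjusted p = 0.0539. The difference of Angptl4 under ANG II was called lower in 6 alternatives (adjusted p = 0.00895 to 0.0475). The change rested on 1 of its 2 probe sets: 1417130_s_at gave 1.10 in WT, -0.78 in KO and 1.28 at baseline. Probe set 1453410_at gave 0.26, -0.13 and 0.29, none of which was called with this probe set alone (adjusted p = 0.0689, 0.424 and 0.101). On the same probe set the difference of Angptl4 responses was -0.39 (adjusted p = 0.097), which was not called. The KO call on Angptl4 was also lost without KO baseline replicates 1, 2 or 3 or KO ANG II replicates 2 or 3 (adjusted p = 0.0586 to 0.11). Vnn1, a pantetheinase that releases cysteamine, had ratios of 1.03, 0.910 and 0.959 in WT baseline and 1.18, 1.06 and 1.13 in WT ANG II kidneys. Vnn1 in KO stood at 1.10, 1.05 and 0.924 at baseline and 0.967, 0.897 and 0.961 with ANG II. WT ANG II kidneys lay above WT baseline kidneys, with KO baseline overlapping both. Vnn1 was lower in KO under ANG II (log2 -0.26 ± 0.08, adjusted p = 0.0328). That call was lost without WT ANG II replicates 1 or 3 or KO ANG II replicates 1, 2 or 3 (adjusted p = 0.0625 to 0.0886) and with quantile normalization, array weights or a fit to the groups compared alone (adjusted p = 0.0574 to 0.112). The WT change of Vnn1, 0.22 ± 0.08, adjusted p = 0.0563, did not pass, and in 4 alternatives it was called higher (adjusted p = 0.0181 to 0.0414) and its difference of responses lower (adjusted p = 0.0153 to 0.0325).

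**Figure D2:**
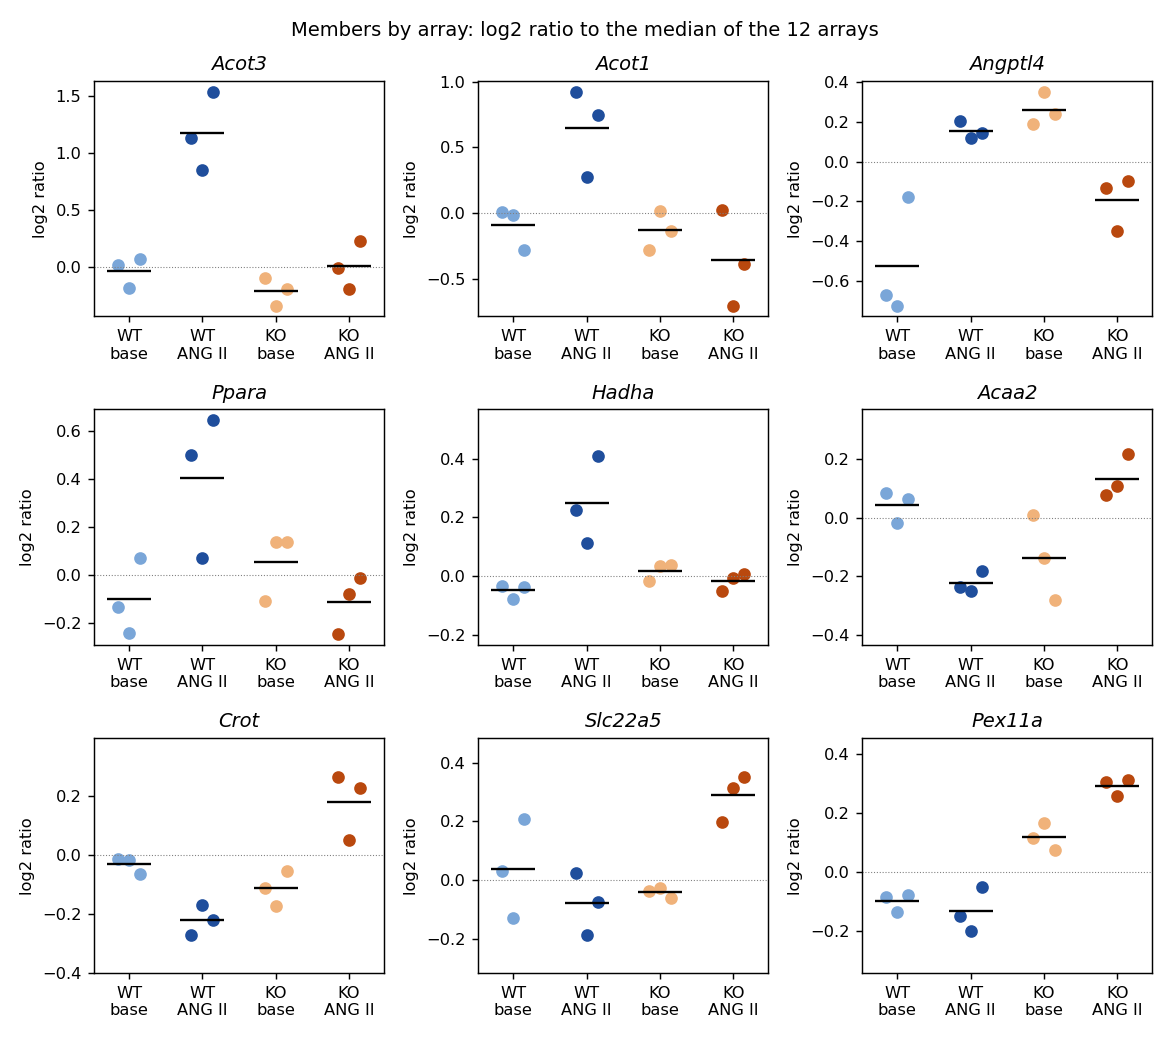
Log2 ratio to the median of the 12 arrays for 9 genes, each point 1 kidney and each bar the mean of its group of 3; WT is blue and KO orange, lighter at baseline. In the panels of Acot3, Acot1, Ppara and Hadha the WT ANG II mean is the highest, with replicate 2 the lowest of its 3 points, and in those of Crot, Slc22a5 and Acaa2 the KO ANG II mean is the highest.

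In all 6 genes that rose with ANG II in WT, replicate 2 was the lowest of the 3 WT ANG II kidneys. The share of all genes called higher with this order was not counted. Outside the 31, Pdk4 had the same order (1.757, 1.133 and 2.762 in replicates 1, 2 and 3). Cyp4a14 did not, with replicate 2 the highest (21.37, 32.15 and 24.97). Of the genes that fell, Acaa2 was lowest in replicate 2 (0.841) and Acads in replicate 1 (0.815). More than 1 probe set was present for 20 of the 31 genes. The log2 distance between their lowest and highest probe set in WT ran from 0.04 (Etfdh) to 0.84 (Angptl4). A wide distance limited what the gene mean says, although no gene had probe sets called in opposite directions in a comparison. Tested one by one, 16 of the 60 probe sets were called in WT (26.7%), where 24.1% of all probe sets were called. They belonged to 15 of the 31 genes (48.4%), where 35.6% of all genes had at least 1 probe set called.

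**Figure D3:**
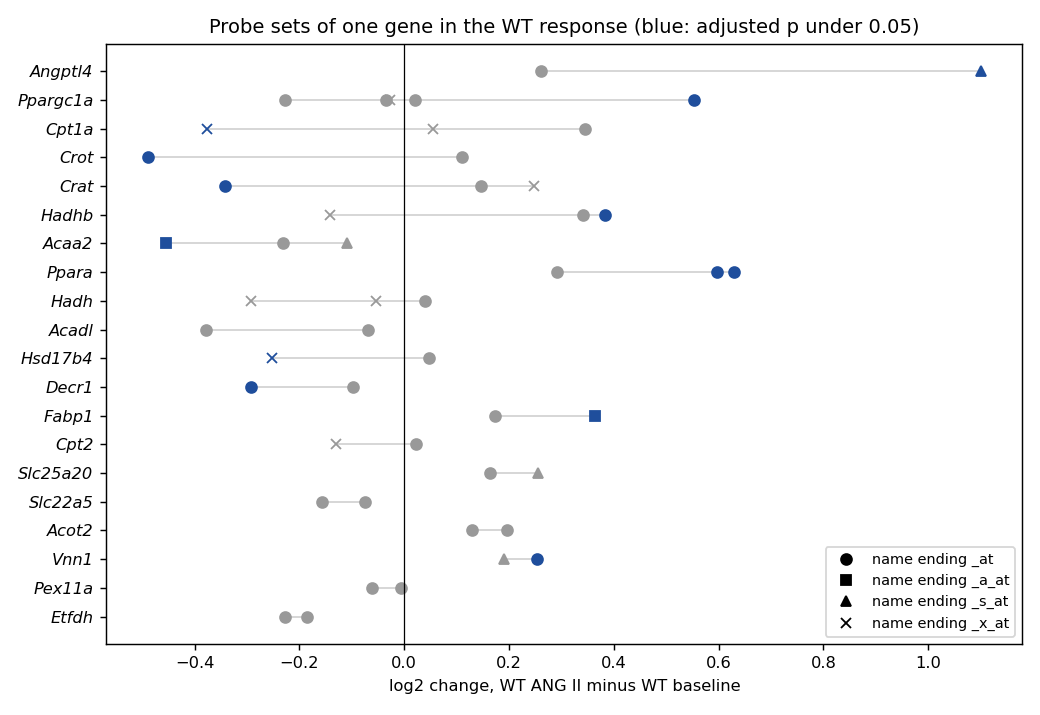
Log2 change with ANG II in WT of each probe set of the 20 genes with more than 1, ordered by the distance between their lowest and highest probe set; blue marks adjusted p under 0.05 and the shape gives the ending of the probe set's name. The probe sets of Angptl4 lie at 0.26 and 1.10. Those of Cpt1a, Cpt2, Crat, Crot, Hadh, Hadhb, Hsd17b4 and Ppargc1a lie on both sides of 0.

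Other genes of the same pathways, taken from lists, were examined beside the 31. Of 21 further mitochondrial genes measured, 3 rose and 6 fell in WT (median -0.08), where 10.9% of all genes were called higher and 15.6% lower. The falls included Acot9, a mitochondrial thioesterase (-0.48 ± 0.08, adjusted p = 0.00111), Acad9, which takes part in complex I assembly (-0.40 ± 0.09, adjusted p = 0.00723), and Acsl4, an arachidonate-preferring acyl-CoA synthetase (-0.37 ± 0.09, adjusted p = 0.00974). Acacb, which makes the CPT1 inhibitor malonyl-CoA, rose by 0.29 ± 0.07, adjusted p = 0.0125, a call lost without WT baseline replicate 1. The responses differed for 4 of the 21, where 13% of all genes were called, and all 4 were higher in KO: Fabp3, a fatty acid binding protein (0.58 ± 0.10), Acot9 (0.51 ± 0.11), Acot13, another thioesterase (0.47 ± 0.09), and Mlycd, which degrades malonyl-CoA (0.43 ± 0.13).

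Of 29 further peroxisomal genes, 14 fell and 2 rose in WT, with a median of -0.17, where 15.6% of all genes were called lower and 10.9% higher. Amacr, the racemase for branched-chain acyl-CoA, had ratios of 0.992, 1.08 and 1.07 in WT baseline and 0.420, 0.455 and 0.438 in WT ANG II kidneys. Amacr in KO stood at 0.938, 0.935 and 1.01 at baseline and 1.26, 1.26 and 1.3 with ANG II. Its 3 WT ANG II kidneys were the lowest of the 12 by a wide margin. Amacr fell 2.39-fold in WT (log2 -1.26 ± 0.06, adjusted p = 9.41e-07) and rose in KO by 0.41 ± 0.06, adjusted p = 0.00243. The coenzyme A and NADH diphosphatases of peroxisomes, Nudt19 (-0.76 ± 0.08, adjusted p = 9.54e-05) and Nudt12 (-0.82 ± 0.10, adjusted p = 0.000163), fell in WT, whereas Hacl1, the lyase of alpha-oxidation, rose (0.96 ± 0.11, adjusted p = 0.000117). In KO 2 of the 29 rose and 3 fell, with Pecr, a trans-2-enoyl-CoA reductase, at 0.77 ± 0.09, adjusted p = 0.000419. Of all genes, 5.82% rose and 7% fell in KO. The responses differed for 11 of the 29, 10 of them higher in KO, where 8.86% of all genes were called higher and 4.12% lower. The difference was 1.67 ± 0.09 for Amacr, 1.16 ± 0.12 for Pecr and 1.01 ± 0.12 for Nudt19, with Hacl1 the exception at -0.76 ± 0.15.

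From the list of ketone body genes, 6 were analysed here. In WT, where 15.6% of all genes fell, 3 fell: Bdh1, the mitochondrial beta-hydroxybutyrate dehydrogenase (-0.56 ± 0.12, adjusted p = 0.00449), Acat1, the acetoacetyl-CoA thiolase (-0.37 ± 0.06, adjusted p = 0.00119), and Aacs, the cytosolic acetoacetyl-CoA synthetase (-0.39 ± 0.13, adjusted p = 0.0456), whose call was lost in 14 of 23 alternatives. Bdh1 ratios were 1.06, 1.06 and 0.919 in WT baseline and 0.767, 0.749 and 0.555 in WT ANG II kidneys. Bdh1 in KO stood at 0.992, 0.983 and 0.997 at baseline and 1.34, 1.17 and 1.10 with ANG II. The 3 WT ANG II kidneys were the lowest. In KO none of the 6 was called by limma (2 had an unadjusted p under 0.05), and the responses differed for 4, higher in KO in each: Bdh1 (0.84 ± 0.16), Acat1 (0.41 ± 0.09), Oxct1, which activates acetoacetate (0.35 ± 0.11), and Bdh2, a cytosolic dehydrogenase (0.35 ± 0.09). Of all genes, 12.8% were called in KO, and 8.86% had a response called higher in KO than in WT.

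Of 18 further PPAR alpha targets measured, 8 rose and 6 fell in WT, where 10.9% of all genes rose and 15.6% fell. Cyp4a14, a fatty acid omega-hydroxylase, had ratios of 0.762, 0.409 and 0.618 in WT baseline and 21.4, 32.2 and 25 in WT ANG II kidneys. Cyp4a14 in KO stood at 1.15, 0.848 and 0.448 at baseline and 1.19, 0.788 and 1.92 with ANG II. The WT ANG II kidneys stood an order of magnitude above all others. Cyp4a14 rose 44.7-fold in WT (log2 5.48 ± 0.36, adjusted p = 4.99e-06). In KO Cyp4a14 changed by 0.68 ± 0.36, adjusted p = 0.216, and the responses differed by -4.80 ± 0.50, adjusted p = 0.000117. Pdk4, the kinase that shuts off pyruvate dehydrogenase, had ratios of 0.526, 0.357 and 0.579 in WT baseline and 1.76, 1.13 and 2.76 in WT ANG II kidneys. Pdk4 in KO stood at 1.12, 1.82 and 2.04 at baseline and 0.884, 0.417 and 0.568 with ANG II. It was high in WT ANG II and KO baseline kidneys and low in the other 2 groups. Pdk4 rose in WT by 1.89 ± 0.34, adjusted p = 0.00205 and fell in KO by a log2 change of -1.44 ± 0.34, adjusted p = 0.0174. The Pdk4 responses differed by -3.32 ± 0.48, adjusted p = 0.000855. Others fell in WT, among them Cd36, a fatty acid translocase (-1.25 ± 0.14, adjusted p = 9.23e-05), and Me1, the cytosolic malic enzyme (-0.62 ± 0.06, adjusted p = 6.73e-05). The responses differed for 9 of the 18, 5 higher and 4 lower in KO, including Cd36 at 1.36 ± 0.19 and Txnip, a regulator of thioredoxin and glucose uptake, at -1.37 ± 0.12. Of all genes, 8.86% had a response called higher in KO and 4.12% lower. Of 21 other regulators measured, 3 were called in WT, a lower share than the 26.5% of all genes: Nrip1, a corepressor (0.29 ± 0.07, adjusted p = 0.0146), Prkaa1, a catalytic subunit of AMP kinase (-0.56 ± 0.14, adjusted p = 0.0139), and Tfam, a mitochondrial transcription factor (-0.29 ± 0.07, adjusted p = 0.0102).

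**Figure D4:**
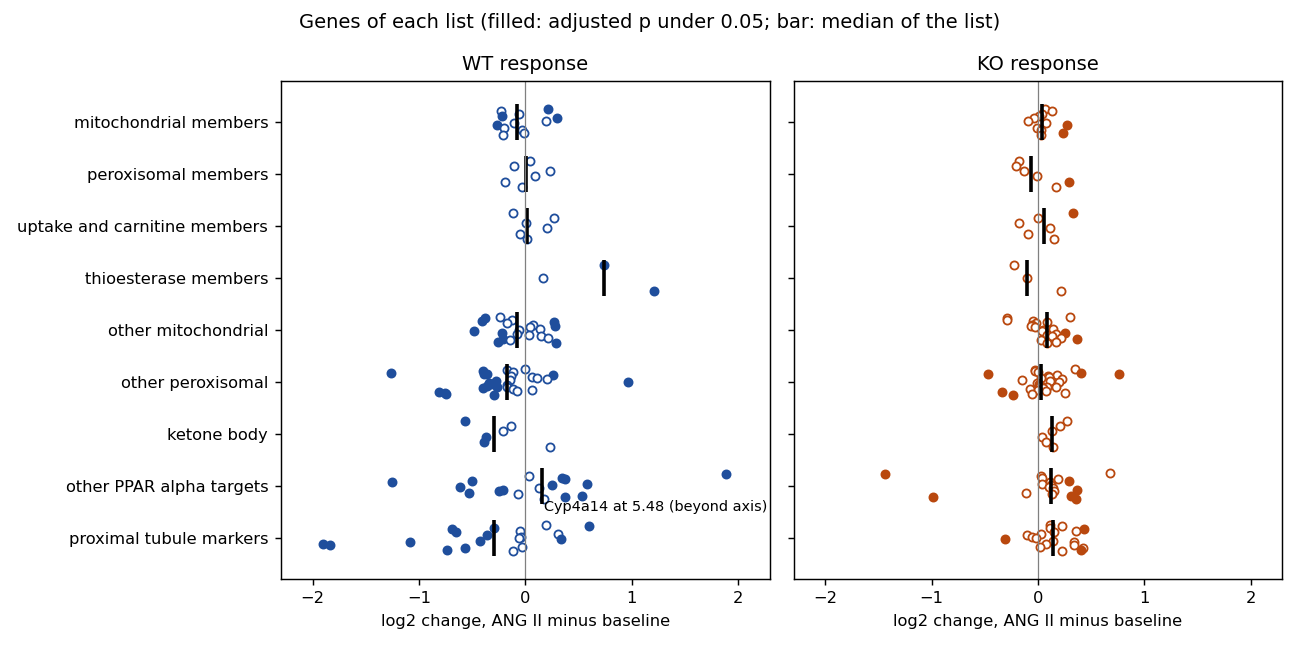
Log2 change with ANG II of every measured gene of each list in WT (left) and KO (right); filled points passed the adjusted threshold of 0.05 and the black bar is the list's median. The further peroxisomal and ketone body lists have WT medians of -0.17 and -0.29, the mitochondrial genes -0.08, and Cyp4a14 lies beyond the axis at 5.48.

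Markers of kidney cell types moved in the same comparisons. Among all genes, 10.9% were called higher and 15.6% lower with ANG II in WT, and 5.82% and 7% in KO. For KO minus WT these shares were 5.13% and 2.94% at baseline and 15.2% and 10.4% under ANG II. Of 19 proximal tubule markers, 10 were called lower and 2 higher in WT with ANG II (median -0.29). Their median log2 ratio per array was -0.02 to 0.13 in WT baseline, -0.21 to -0.01 in WT ANG II, -0.06 to 0.01 in KO baseline and 0.03 to 0.09 in KO ANG II kidneys. The markers themselves ranged from -1.91 to 0.60 in WT. Acaa2, Acads and 14 of the further peroxisomal genes were also called lower in WT. Acot3, Acot1, Angptl4, Ppara, Hadha and Acadvl were called higher. These genes are named by their calls, so their direction beside the markers tests no link. Of 8 macrophage markers, 7 were higher in KO than in WT both at baseline and under ANG II, and 6 fell in KO and 4 in WT with ANG II. Array medians were -0.45 to 0.02 in WT baseline, -0.90 to -0.48 in WT ANG II, 0.91 to 1.62 in KO baseline and -0.14 to 0.36 in KO ANG II kidneys. Markers of other cell types were also called higher in KO at baseline, 4 of 8 for smooth muscle and fibroblasts, 3 of 5 for podocytes and 2 of 7 for endothelium, and 4 of 19 proximal tubule markers were lower. Of the first 3 of these lists 2, 3 and 3 markers fell with ANG II in KO, in the same order, and 1 of endothelium rose. Of the proximal tubule markers 2 rose and 1 fell in KO (median 0.15). Under ANG II 9 of the 19 were higher and 2 lower in KO than in WT. Angptl4 and Pdk4 were high at KO baseline and fell in KO, and both were called higher with ANG II in WT. In WT the median change with ANG II was -0.56 for macrophage markers and 0.22 for podocyte markers. Of 8 adipocyte markers, 2 were called higher in WT, Cidea (0.39 ± 0.13, adjusted p = 0.0419) and Ucp1 (0.37 ± 0.10, adjusted p = 0.0198), and none in KO, with 1 at an unadjusted p under 0.05. Adipocyte medians per array were -0.02 to 0.11, 0.05 to 0.30, -0.16 to -0.01 and -0.06 to 0.03 in the same order. The part of these markers, of the control probe set difference and of the wider spread on the WT ANG II arrays in the changes above was not tested, and in whole kidney fewer cells of a type and less RNA per cell cannot be told apart.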

How the data were processed

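Total RNA of snap-frozen kidneys was labelled and read on Affymetrix whole-genome mouse arrays, 1 per mouse. Per the submitters' processing notes the values come from RMA, which corrects background, normalizes by quantiles and summarizes probes. The deposited values were linear ratios, as read from their medians: 45099 of 45101 probe sets had a median within 0.002 of 1, a division that no source used here states. The remaining 2 probe sets belong to none of the genes described.

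The deposited ratios were put on the log2 scale with no pseudocount, 64 control probe sets were left out, and probe sets with 1 symbol in the array annotation were averaged per gene. Using limma 3.58.1 (R 4.3.3), group means were estimated from the 12 arrays together (8 residual and 4.73 prior degrees of freedom, no covariates), with 5 two-sided comparisons and Benjamini-Hochberg adjustment within each. The procedure was tested on simulated data. The 32 genes, the lists and the tests were chosen with earlier results of these data known. Genes named from the other lists were up to 4 called genes of each list with the largest absolute change, or up to 2 where none was called, and the text gives part of these. Cell type lists covered the proximal tubule, thick ascending limb, distal convoluted tubule, collecting duct, podocytes, endothelium, smooth muscle and fibroblasts, macrophages, adipocytes and the adrenal cortex. In the WT response their members called higher and lower were 0 and 1 of 7 for the thick limb, 0 and 3 of 6 for the distal convoluted tubule, 1 and 2 of 10 for the collecting duct, 0 and 0 of 5 for podocytes (2 at an unadjusted p under 0.05), 1 and 3 of 7 for endothelium, 0 and 1 of 8 for smooth muscle and fibroblasts, and 1 and 0 of 6 for the adrenal cortex. Of all genes, 10.9% were called higher and 15.6% lower in that response. Alternatives were a variance trend, 1 probe set per gene or the median of them, quantile normalization, centring of arrays, a block for the replicate number, array weights, a filter on low spread, log2(ratio + 0.1), probe sets tested one by one, a fit to the groups compared alone and each array left out in turn. Leaving out _x_at and _s_at probe sets was added after seeing the data.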

Additional observations from a re-analysis of the deposited data

Results flagged for a closer look

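For 7 genes the change with ANG II differed between the genotypes by the direct test of that difference, given as the KO minus the WT response on the log2 scale. It was -1.14 ± 0.17, adjusted p = 0.00126 for Angptl4, -0.99 ± 0.22, adjusted p = 0.00991 for Acot3, -0.96 ± 0.26, adjusted p = 0.028 for Acot1 and -0.67 ± 0.19, adjusted p = 0.0362 for Ppara. It was 0.53 ± 0.11, adjusted p = 0.00687 for Acaa2, 0.48 ± 0.10, adjusted p = 0.00702 for Crot and 0.44 ± 0.12, adjusted p = 0.0312 for Slc22a5. Of these, Angptl4 and Acaa2 were called in both genotypes and in opposite directions. With 1 probe set per gene neither Angptl4 response was called, and their difference of -0.39 was not called either (adjusted p = 0.097). The Acaa2 call was lost in 6 of 24 alternatives in WT and in 10 of 24 in KO, while that on its difference held in every alternative run. Acot3, Acot1 and Ppara were called in WT and not in KO, and Crot and Slc22a5 in KO and not in WT.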

How the results depend on the processing

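Over the alternatives run, calls on the 31 genes kept direction and significance in 151 of 188 combinations of gene and setting for the WT response, 86 of 119 for KO, 130 of 160 for the difference of responses, 29 of 48 at baseline and 323 of 375 under ANG II, and the others lost significance with none turned. Uncalled changes passed in at least 1 alternative other than the replicate block for 11 genes in WT, 5 in KO, 3 for the difference and 3 under ANG II. Of the uncalled changes, Crat in WT was called at -0.34 with 1 probe set per gene and with probe sets tested one by one, and Cpt1a at -0.38 with the latter, against gene means slightly above 0. Among marker genes not described, 1 probe set per gene turned the changes of Wnk1 to 0.17 in WT and 0.057 in KO, and the KO minus WT differences of Dcn to -0.082 at baseline and -0.36 under ANG II. The number of the 31 genes called was 4 in WT and 10 under ANG II with quantile normalization, and 15 in WT with probe sets tested one by one. With the filter on low spread, which kept 12 of the 31 genes, it was 5 in WT, 3 in KO, 1 at baseline and 9 under ANG II. With 1 probe set per gene it was 2 in KO and 0 at baseline (4 in limma at an unadjusted p under 0.05), and without _x_at and _s_at probe sets 0 at baseline (3 at an unadjusted p). At baseline it was 1 with the variance trend, the median of probe sets, probe sets tested one by one and the groups alone. On leaving out each array in turn it ran from 4 to 8 in WT, from 0 to 6 in KO (7 and 8 at an unadjusted p in the 2 fits with 0), from 4 to 7 for the difference, from 1 to 2 at baseline and from 10 to 17 under ANG II. The cause of these shifts was not tested, apart from the fewer genes or samples that a setting leaves. Same-numbered arrays of different groups had deviations correlated at -0.146 to 0.287 (18 pairs) and others at -0.366 to 0.250 (36 pairs), so the numbers were not taken as pairs, and with the replicate number as a block 10, 5, 8, 1 and 16 genes were called in WT, in KO, for the difference, at baseline and under ANG II. The block ended the calls on Pex11a at baseline (adjusted p = 0.0592) and Acadm under ANG II (0.0523), while Vnn1 (WT and difference), Etfdh (WT) and Angptl4 (under ANG II) passed with it.

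The number of all genes called, 4821 in WT, 2333 in KO, 2361 for the difference, 1469 at baseline and 4651 under ANG II, was 2591 in WT and 2305 under ANG II with quantile normalization, 3565 in KO and 2552 at baseline with array weights, and 2794 under ANG II with the groups alone. Leaving out single arrays gave 2589 to 5472, 935 to 2653, 1485 to 2748, 570 to 1652 and 2738 to 5428. Among genes of the other lists, calls on the difference were lost for Oxct1 in 15 of 21 alternatives, Mlycd in 12 of 22 and Bdh2 in 7 of 21, and WT calls for Cidea in 10 of 23, Ucp1 in 6 of 23, Nrip1 in 5 of 22 and Prkaa1 in 3 of 23. Ratios carry no signal above background, so which genes were too dim is unknown.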
